A study of Saccharomyces cerevisiae with 48 samples.

Results

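Segregants of a budding yeast cross were compared by the signal of UIP3, a membrane protein gene on the right arm of chromosome I. Saccharomyces cerevisiae RNA was measured on 1-colour Agilent arrays, and each of the 43 haploid MATa segregants (SEG lines) of the cross named YJM789 X S96 was measured once after 30 min with 5 µM alpha factor, the mating pheromone of MATalpha cells. The MATa parental lines HS959 and S96 were each measured with and without alpha factor, and the segregant SEG8 was also measured untreated. Cultures were in YPAD medium at mid-log phase (OD 0.6) at 30 °C, and the labels give no further alleles for HS959, S96 or the SEG lines. A segregant was called HS959-like if its UIP3 level was nearer to that of treated HS959, and S96-like if it was nearer to that of treated S96. The members of each class were thus chosen by the measured UIP3 level. This put 19 segregants in the HS959-like class and 24 in the S96-like class, 43 of the 48 arrays of the series. Levels are log2 intensity relative to the 75th percentile of the array. The number of arrays limits the precision, and since each line is 1 array, p-values measure the spread between segregants, part of which may be technical.

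UIP3 belongs to the DUP240 family, yeast membrane proteins with a pair of transmembrane stretches. Most members stand in a tandem cluster on chromosome I and a smaller group on chromosome VII, and strains are known to differ in how many copies they carry. UIP3 was named for its interaction with the SUMO protease Ulp1, KTD1 protects cells from the K28 killer toxin, and MST27 and MST28 bind the COPI coat of vesicles that return from the Golgi to the endoplasmic reticulum. In haploid offspring of a cross, genes close to each other on a chromosome are inherited together more often than distant ones, and genes on other chromosomes are inherited independently.

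The class rule split the segregants without intermediates. UIP3 lay between -13.70 and -9.64 in the HS959-like class, with a median of -12.60, and between -0.96 and -0.19 in the S96-like class, with a median of -0.58. The treated parents that set the rule had -11.13 (HS959) and -0.85 (S96), so the dividing level was -5.99. The arrays nearest to it were SEG14 at -9.64 and SEG25 at -0.96, leaving a gap of 8.68. UIP3 was well above background on 1 of 19 HS959-like arrays, SEG11, and on all 24 S96-like arrays. These values define the classes and were not tested. Arrays that the rule did not use gave like levels: untreated HS959 had -9.84, untreated S96 had -0.88, and untreated SEG8, of the S96-like class, had -1.07.

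Both classes gave arrays of similar quality. Median intensity lay between 10644 and 18398 on HS959-like arrays and between 9804 and 23353 on S96-like arrays. The share of gene spots well above background had a median of 99.3% in each class, with SEG14, an HS959-like segregant, the lowest at 94.0%. The arrays lay on 6 slides, and each slide held both classes, with 1 HS959-like and 3 S96-like arrays on the first slide and 3 or 4 HS959-like arrays on each of the others. All 7 a-specific genes, the markers of MATa cells, were above background on every array, and none of them passed the test between the classes described next (2 at an unadjusted p under 0.05). The 5 alpha-specific genes were also above background on every array, with a summed level on the linear scale of 0.762 to 3.86 in the HS959-like class and 0.477 to 4.16 in the S96-like class. The a-specific sum was 28.5 to 42.6 in the HS959-like class and 27.5 to 52.9 in the S96-like class.

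In limma, 16 of 6244 tested genes (0.256%) passed a Benjamini-Hochberg adjusted p of 0.05 between the classes, 5 higher (0.0801%) and 11 lower (0.176%) in HS959-like segregants. Of these, 11 lay among the 33 tested genes of the right arm of chromosome I, 1 among the 72 of its left arm and 4 among 6139 genes elsewhere. Within 10 genes to the right of UIP3 in gene order, 9 of 10 genes passed, and within 10 genes to the left 2 of 10 passed, whereas 0 of the 12 genes further right (4 at an unadjusted p under 0.05) and 1 of the 73 genes further left passed. Of the 9, KTD1, DFP2, YAR030C, PRM9 and MST28 entered the test only through S96-like arrays, where they are bright, so the count is a description. Over all genes 429 had an unadjusted p under 0.05, 26 of them on chromosome I. Each systematic name has 1 probe on this array, so a missing or altered sequence at the probe and a lower RNA level cannot be told apart here.

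**Figure D1:**
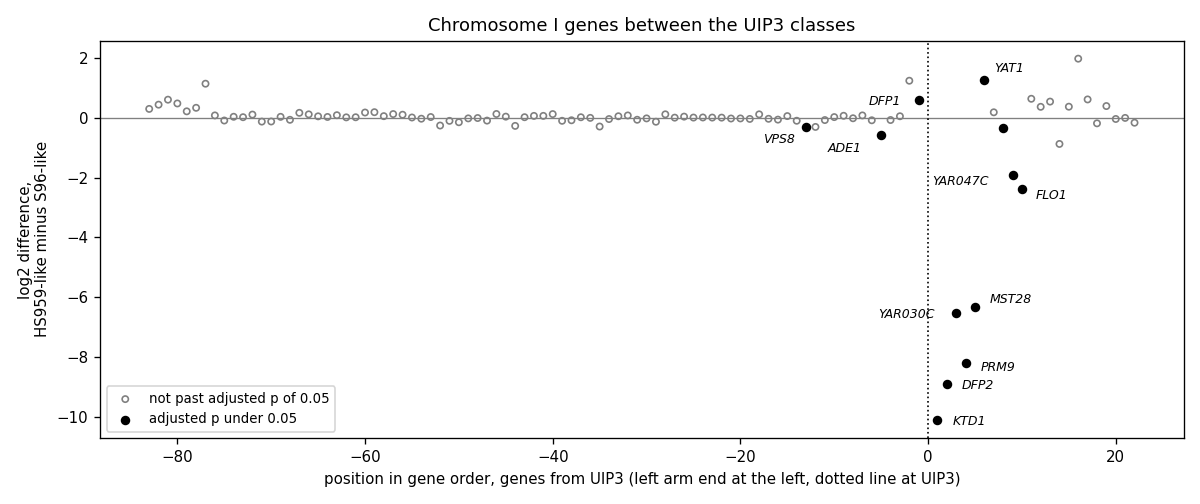
Log2 difference in level (HS959-like minus S96-like segregants, 19 and 24 arrays) of each chromosome I gene, in gene order from the left arm end, with UIP3 at 0 and itself not drawn. Filled points passed a limma adjusted p of 0.05; they gather right of UIP3, from KTD1 at -10.11 to YAT1 at 1.25, and the unlabelled filled point is YAR044W.

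The genes directly right of UIP3 lost nearly all signal in the HS959-like class. KTD1 lay between -13.48 and -9.73 in HS959-like segregants (median -12.72) and between -3.21 and -1.78 in S96-like segregants (median -2.38). It was well above background on 0 of 19 HS959-like arrays, where it was at least 243-fold lower (measured log2 difference -10.11 ± 0.20, SE; limma adjusted p = 1.89e-36). A lower bound of this kind is the mean of the brighter class over the mean, per array, of the lowest signal well above background or the dim value, whichever was higher. PRM9, named as a pheromone-regulated membrane protein gene, lay between -13.65 and -9.65 in HS959-like segregants (median -12.71) and between -6.59 and -3.08 in S96-like segregants (median -4.23). It too was above background on 0 of 19 HS959-like arrays and was at least 63.5-fold lower (-8.20 ± 0.25, limma adjusted p = 1.05e-28). The classes did not overlap for either gene. Both genes entered the test only through S96-like arrays, so nothing is read from their p-values.

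DFP2 and the reading frame YAR030C, which lie between KTD1 and PRM9, behaved alike. DFP2, a short DUP240 frame, lay between -13.55 and -9.53 in HS959-like segregants (median -12.45) and between -4.28 and -2.93 in S96-like segregants (median -3.46). It was above background on 1 of 19 HS959-like arrays, and the measured difference, whose size rests on dim values, was -8.89 ± 0.23 (limma adjusted p = 1.43e-31). YAR030C lay between -12.31 and -9.67 in HS959-like segregants (median -11.25) and between -5.31 and -4.21 in S96-like segregants (median -4.74). It was above background on 4 of 19 HS959-like arrays, with a measured difference, limited in the same way, of -6.53 ± 0.14 (limma adjusted p = 3.78e-35). Again no HS959-like array reached the lowest S96-like one. SEG14, the array with the fewest spots above background, gave the highest HS959-like value of UIP3, KTD1, DFP2, YAR030C and PRM9, and all 4 tested ones stayed called without it. These 4 entered the test only through S96-like arrays, so nothing is read from their p-values or from their staying called.

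The ranges of the classes were separate for 5 of the 6244 genes (0.0801%), namely KTD1, DFP2, YAR030C, PRM9 and, narrowly, MST28. Each of these passed the filter on dim probes only through S96-like arrays, so nothing is read from this count either. Among S96-like segregants PRM9 varied most of this row on the log2 scale, with an SD of 0.75 against 0.38 for KTD1, 0.33 for DFP2 and 0.32 for YAR030C. The parents differed in the same direction on untreated arrays, HS959 minus S96: -9.04 for KTD1, -9.12 for DFP2, -6.82 for YAR030C and -11.49 for PRM9. These are single values, and their size rests on dim HS959 signal, which for PRM9 was not well above background in either condition.

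DFP1, the cluster gene left of UIP3, went the other way. It lay between -4.06 and -2.58 in HS959-like segregants (median -3.31) and between -4.67 and -3.53 in S96-like segregants (median -3.87), and was above background on all 43 arrays. The ranges overlapped, and the mean was 1.49-fold higher in HS959-like segregants (0.57 ± 0.10, limma adjusted p = 0.000389), with the same sign on 6 of 6 slides. HS959 exceeded S96 by 0.43 treated and by 0.24 untreated.

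**Figure D2:**
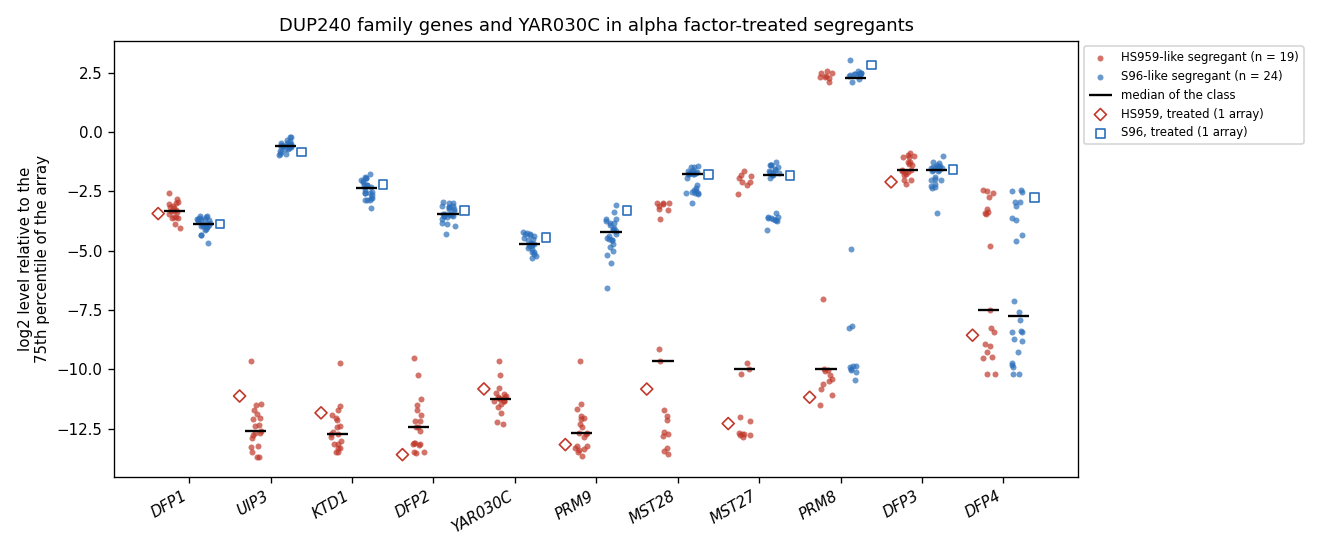
Level (log2, relative to the 75th percentile of the array) of the 10 DUP240 genes and YAR030C in HS959-like segregants (red, left of each pair, 19 arrays) and S96-like segregants (blue, 24 arrays), with the class medians and the treated parents. UIP3, KTD1, DFP2, YAR030C and PRM9 split cleanly by class, whereas MST28, MST27, PRM8 and DFP4 form clusters within a class.

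Among the 10 DUP240 genes, all of which passed the filter on dim probes, 9 were tested. Of these, 5 were lower and 1 higher in HS959-like segregants, against 0.176% and 0.0801% of all genes; since all 5 lower ones were above background on fewer HS959-like arrays than the 11 the filter asks for, and so passed it only through S96-like arrays, nothing is read from the count. The 5 lower ones were KTD1, DFP2, PRM9, MST28 and MST27, and the last of these lies on chromosome VII. PRM8, also on chromosome VII, ranged from -11.53 to 2.58 in HS959-like segregants and from -10.47 to 3.02 in S96-like segregants and did not pass (-2.53 ± 1.85, limma adjusted p = 0.843). The remaining members, DFP3 on chromosome III (0.28 ± 0.14, limma adjusted p = 0.717) and DFP4 on chromosome VIII (0.28 ± 0.91, limma adjusted p = 0.970), did not pass either.

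MST28, the outermost cluster gene, kept a strong signal in 8 of the 19 HS959-like segregants. It lay between -13.58 and -2.99 in the HS959-like class (median -9.65) and between -2.99 and -1.45 in the S96-like class (median -1.77), and the overall difference was -6.31 ± 0.93 (limma adjusted p = 2.76e-05). The ranges nearly touched at this edge. MST27, its relative on chromosome VII, lay between -12.85 and -1.62 in HS959-like segregants (median -9.98) and between -4.11 and -1.26 in S96-like segregants (median -1.81), with a difference of -5.27 ± 1.04 (limma adjusted p = 0.00434). The MST27 difference kept its sign on 5 of 6 slides. MST28 and MST27 both fell into clusters within a class.

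Those clusters followed the signal of PRM8, the neighbour of MST27 on chromosome VII, when the segregants were also sorted by the nearer treated parent at PRM8. SEG13, S96-like at UIP3, lay close to the dividing PRM8 level of -4.18, at -4.93, and counted as HS959-like at PRM8. The next nearest array was SEG14 at -7.04. In SEG13 MST28 was at -2.48 and MST27 at -3.61. The MST28 probe was near background in the 11 segregants that were HS959-like at both genes, with a median of -12.65 and 1 array above background. Its median was -3.08 in the 8 that were HS959-like only at UIP3, -2.54 in the 10 that were HS959-like only at PRM8 and -1.69 in the 14 that were S96-like at both. The MST27 probe had medians of -12.67, -2.02, -3.65 and -1.62 in the same order of groups. Each probe thus kept signal wherever a segregant was S96-like at either gene, and was highest where it was S96-like at both.

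The difference between the UIP3 classes in these genes depended on the PRM8 class, in a fit added after the data had been seen. For MST28 it was -9.58 ± 0.32 within HS959-like PRM8 and -1.49 ± 0.33 within S96-like PRM8 segregants, an interaction of -8.08 ± 0.46 (limma adjusted p = 3.24e-17). For MST27 it was -8.20 ± 0.28 and -0.43 ± 0.29, an interaction of -7.76 ± 0.40 (limma adjusted p = 1.85e-18). YGL052W, the frame between MST27 and PRM8, had -2.22 ± 0.14 and -0.07 ± 0.14 and an interaction of -2.14 ± 0.20 (limma adjusted p = 5.51e-10). In the segregants HS959-like at both genes, 1 of 11 arrays was above background for MST28, 2 for MST27 and 7 for YGL052W, so the size of these differences and interactions rests on dim values. MST28 and MST27 also passed the filter on dim probes only through arrays S96-like at UIP3, so nothing is read from their p-values. MST28, MST27 and YGL052W were the 3 genes of 6244 (0.048%) that passed the interaction test. MST27 and MST28 are closely similar genes, and whether their probes share signal was not tested. Within HS959-like PRM8 segregants 8 genes (0.128%) passed between the UIP3 classes, and within S96-like PRM8 segregants 6 genes (0.0961%). All of these but YAT1 and YGL052W passed the filter on dim probes only through arrays S96-like at UIP3, so nothing is read from either count. KTD1 (0.34 ± 0.41) and PRM9 (0.81 ± 0.51) showed no called interaction (limma adjusted p = 0.999 for each).

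**Figure D3:**
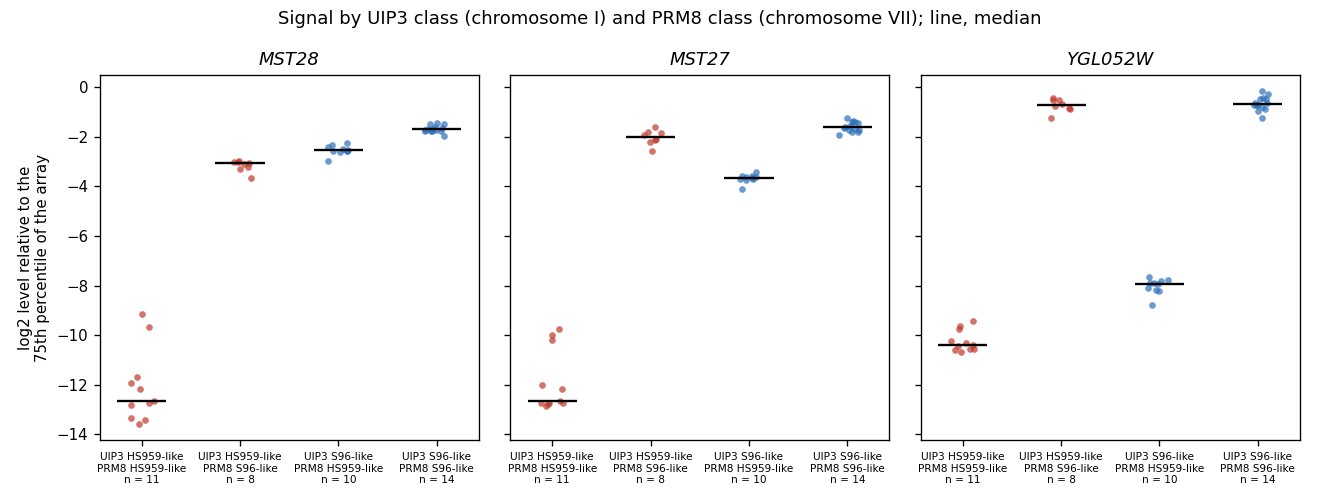
Level (log2, relative to the 75th percentile of the array) of MST28, MST27 and YGL052W in the 4 combinations of UIP3 class (red, HS959-like; blue, S96-like) and PRM8 class. Points are segregants and lines are medians; MST28 and MST27 are near background in the group of 11 that is HS959-like at both genes.

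YAT1, the next gene beyond the cluster, was higher in HS959-like segregants. It encodes the outer mitochondrial carnitine acetyltransferase, which moves acetyl groups between compartments. It lay between -3.33 and -2.27 in HS959-like segregants (median -2.66) and between -4.91 and -2.68 in S96-like segregants (median -3.90). The mean was 2.37-fold higher in the HS959-like class (1.25 ± 0.13, limma adjusted p = 6.00e-09), with the same sign on 6 of 6 slides (1.02 to 1.63). The spread was also narrower in the HS959-like class, with an SD of 0.24 against 0.54. HS959 exceeded S96 by 0.97 on treated and by 0.29 on untreated arrays. With alpha factor YAT1 was 0.70 lower in HS959, 1.38 lower in S96 and 1.03 lower in SEG8, each from 1 pair of arrays.

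Further right, FLO1 and the frame YAR047C beside it were lower in HS959-like segregants. FLO1, a flocculin gene whose product makes cells adhere to each other, lay between -6.02 and -2.29 in HS959-like segregants (median -5.01) and between -6.36 and 0.73 in S96-like segregants (median -2.46). The difference was -2.39 ± 0.44 (limma adjusted p = 0.00139), and the ranges overlapped widely. YAR047C lay between -7.76 and -4.26 in HS959-like segregants and between -6.99 and -2.36 in S96-like segregants (-1.91 ± 0.37, limma adjusted p = 0.00312). For FLO1 the parents had this direction only when treated: HS959 minus S96 was -2.25 treated and 1.81 untreated. For YAR047C they had the opposite direction in both conditions, at 1.48 treated and 4.22 untreated. FLO1 and YAR047C each kept their sign in segregants on 5 of 6 slides. Of 5 flocculin genes only FLO1 passed (0.256% of all genes did); FLO9, on the left end of chromosome I (-0.10 ± 0.29), and FLO5 (-0.26 ± 0.21) did not, and flocculin genes share repeats that a probe may read from several copies.

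The remaining calls on chromosome I were small. ADE1, an enzyme gene of adenine synthesis on the left side of the cluster, lay between -2.60 and -1.17 in HS959-like segregants (median -1.80) and between -2.62 and -0.60 in S96-like segregants (median -1.23). The mean was lower in the HS959-like class (-0.58 ± 0.13, limma adjusted p = 0.0162). The parents differed in the same direction, by -1.36 treated and -1.34 untreated. It was the 1 of 9 adenine synthesis genes that passed, against 0.256% of all genes. YAR044W, listed in the reference table under SWH1, an oxysterol-binding protein gene, differed by -0.36 ± 0.08 (limma adjusted p = 0.0402), with the same sign on 5 of 6 slides. The probe named SWH1 itself did not pass (0.18 ± 0.30). The difference between these probes was not tested. VPS8, a vacuolar protein sorting gene on the left arm, differed by -0.30 ± 0.07 (limma adjusted p = 0.0459). Without SEG14 both calls were lost, at -0.34 for YAR044W and -0.28 for VPS8 (limma adjusted p = 0.0881 and 0.107).

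Between ADE1 and DFP1, 3 neighbours of UIP3 did not pass. KIN3, a protein kinase gene, differed by -0.08 ± 0.08 and CDC15, a kinase gene of mitotic exit, by 0.05 ± 0.05 (limma adjusted p = 0.898 and 0.904). PAU7, of the seripauperin family whose copies are hard to tell apart, ranged from -1.97 to 1.60 in HS959-like segregants and from -2.86 to 1.38 in S96-like segregants (1.23 ± 0.47, limma adjusted p = 0.652).

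The extent of shared inheritance was described by repeating the nearest-parent rule at every gene whose treated parents differed by at least 1 on the log2 scale. KTD1, DFP2, YAR030C and PRM9 matched the UIP3 class in 43 of 43 segregants. FLO1 and MST28 matched in 35, ADE1 in 34 and PAU7 in 27. YAR047C, the neighbour of FLO1, matched in only 11, and the 6 genes beyond FLO1 in 12 to 26. Over 24 such genes of chromosome I the median was 22.5 of 43. Set by the untreated parents instead, the 4 cluster genes again matched in 43, MST28 in 35 and ADE1 in 33, whereas FLO1 matched in 14 and YAR047C in 10. By the treated parents, the 9 left arm genes matched in 17 to 27 segregants, and 582 genes on other chromosomes matched in 11 to 36 (median 21). Matches at a gene whose level is set by more than its own locus do not count recombinations.

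Outside chromosome I, 3 genes were higher in HS959-like segregants and 1, MST27, was lower. The frame YOL106W on chromosome XV lay between -4.41 and -1.36 in HS959-like segregants (median -3.01) and between -4.78 and -2.65 in S96-like segregants (median -4.19). It was 2.09-fold higher in the HS959-like class (1.06 ± 0.18, limma adjusted p = 0.000245), with the same sign on 6 of 6 slides. The frame YMR046W-A on chromosome XIII lay between -2.25 and 0.41 in HS959-like segregants (median -0.83) and between -2.36 and -0.45 in S96-like segregants (median -1.61), a difference of 0.77 ± 0.16 (limma adjusted p = 0.0142). Both were also higher in HS959 than in S96, YOL106W by 2.21 treated and 0.93 untreated and YMR046W-A by 2.21 and 0.50.

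FBP1, the gluconeogenic enzyme fructose-1,6-bisphosphatase, lay between -5.69 and -3.61 in HS959-like segregants (median -4.46) and between -7.14 and -4.31 in S96-like segregants (median -5.59). It was 2.02-fold higher in the HS959-like class (1.02 ± 0.21, limma adjusted p = 0.00856), with the same sign on 5 of 6 slides (-0.27 to 1.67). The parents, by contrast, lay within 0.14 of each other, at -4.82 (HS959) and -4.77 (S96) treated and at -4.30 (HS959) and -4.16 (S96) untreated. The call was lost when the nearest-parent classes of 8 genes outside chromosome I were added as covariates (0.80, limma adjusted p = 0.100). Of these 8, PEX30, ASP3-1 and AYT1 lie on chromosome XII, as does FBP1 itself. Which of the covariates changed the call was not tested. Among those 8, agreement with the UIP3 class ranged from 19 of 43 segregants for ASP3-1 and HMS1 to 27 for REE1.

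**Figure D4:**
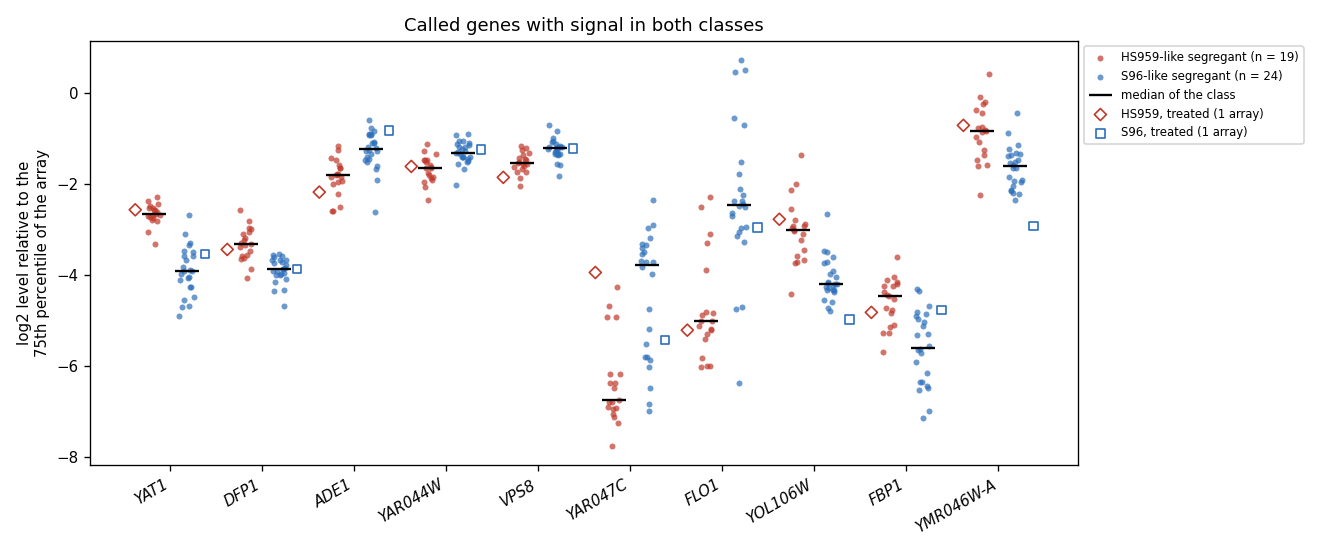
Level (log2, relative to the 75th percentile of the array) of the 10 called genes that kept signal in both classes, in HS959-like segregants (red, 19 arrays) and S96-like segregants (blue, 24 arrays), with class medians and the treated parents. The ranges of the classes overlap for each gene shown, and the parents lie close together for FBP1.

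Gene groups tied to the known roles of the family or to the pheromone response held no gene that passed, where 0.256% of all genes passed and 429 of 6244 had an unadjusted p under 0.05. None of 10 COPI coat genes, 8 genes of Ulp1, SUMO and the nuclear pore basket, or 10 genes of endoplasmic reticulum folding passed in limma, and the lowest adjusted p in these was 0.671 for ARF1 and MLP1 and 0.924 for ERV2. Their median differences were -0.01, -0.01 and -0.02 beside 0.0027 over all genes. At an unadjusted p under 0.05 there were 2, 1 and 0 genes in these lists, in the same order. Of 25 pheromone-induced genes 0 passed (4 unadjusted, median -0.08, lowest adjusted p = 0.427 for STE2, the alpha factor receptor gene), and of 11 daughter-cell genes 0 passed (0 unadjusted, lowest adjusted p = 0.814). The pheromone-induced list held neither PRM9, which passed, nor PRM8, which did not. None of the 5 alpha-specific genes (0 unadjusted) or of 15 phosphate starvation genes (1 unadjusted) passed, including PHO11, an acid phosphatase gene at the right end of chromosome I (-0.04 ± 0.15, adjusted p = 0.971). A p above the threshold does not show that these genes were equal between the classes.

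**Figure D5:**
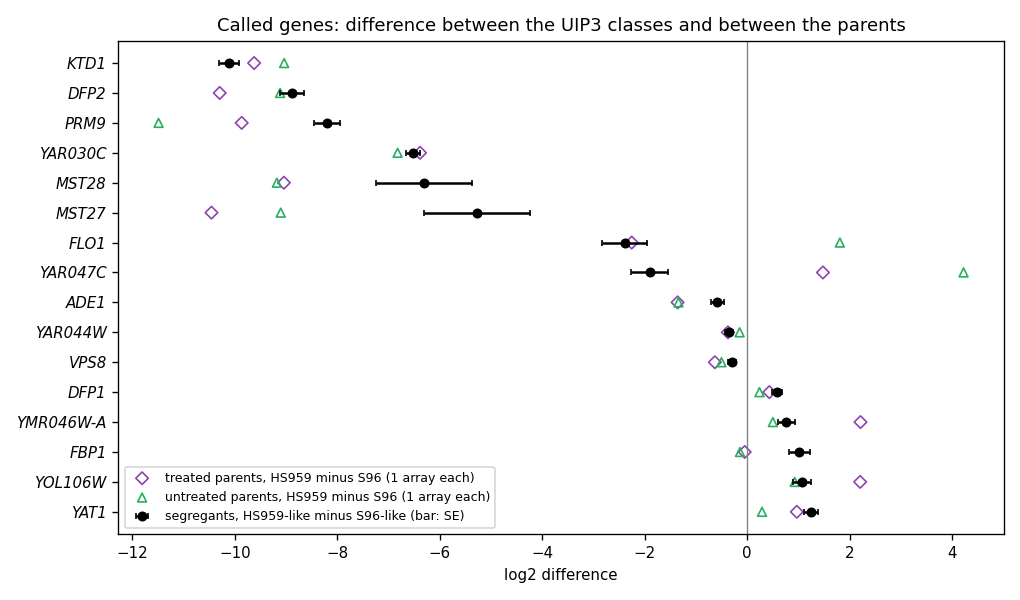
Log2 difference of the 16 called genes between the UIP3 classes (black, HS959-like minus S96-like, bars SE) and between the parents (HS959 minus S96, 1 array each, purple treated, green untreated). The sign is shared with the treated parents for 14 genes and with the untreated parents for 13, without the share over all genes, so nothing is read from these counts.

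Set against the parents, 14 of the 16 called genes had the sign of the treated parental difference, the exceptions being FBP1 and YAR047C. With untreated parents 13 of 16 did, FLO1 being the further exception. The share of all genes that did so is not given. KTD1, DFP2, YAR030C, PRM9, MST28 and MST27 passed the filter on dim probes only through S96-like arrays, and nothing is read from either count. In S96 and SEG8, strains that carry the signal of the cluster, treated minus untreated was 0.03 and 0.61 for UIP3 and -0.29 and -0.55 for KTD1. It was -0.53 and -0.58 for DFP2, -0.60 and -0.61 for YAR030C, and -0.41 and -0.72 for PRM9. DFP1 gave -0.02 and 0.33, and MST28 gave 0.21 and 0.52, each from 1 pair of arrays per strain. PRM8 by comparison gave 4.14 in S96 and 3.97 in SEG8, from 1 pair of arrays each and without a test.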

How the data were processed

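Per the labels' protocols, total RNA was labelled with Cy3. Per the file headers, the deposited intensity is the Cy3 signal of a spot, background-subtracted and detrended by Agilent Feature Extraction 10.5.1.1 (9.1 per the submitters' processing notes), array design 016322, annotated on sacCer1. Other deposited columns used were spot flags, and raw median and background intensity, which stood in for mean intensity in the normexp alternative. The authors' series matrix held the same intensity in 626304 of 626304 cells.

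Control spots were dropped, as were 0 to 97 spots per array with outlier flags. Each of 6256 genes had 2 spots of 1 probe, averaged on the log2 scale and set against the log2 75th percentile of all gene spots. The 6245 genes well above background, in either spot, on at least 11 of 43 segregant arrays entered limma 3.58.1 in R 4.3.3 (lmFit, eBayes, two-sided), without UIP3, which set the classes. Slide was an alternative, as were scaling, background, filter, arrays left out and covariates. Names came from the R64 table (5756 of 6256 matched). Gene order follows systematic names, since the builds differ and coordinates are not printed.

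The members, lists and tests were chosen with earlier results of these data known. Genes were named if in the DUP240 family, within 5 genes of UIP3, among the 15 largest calls on chromosome I or the 10 largest each way elsewhere, or called in a list of the DUP240, COPI, Ulp1, endoplasmic reticulum, pheromone, daughter-cell, phosphate, flocculin, adenine, a-specific or alpha-specific genes. YGL052W, SWH1, FLO5, FLO9 and PHO11 were added after their values were seen. Likeness to UIP3 by correlation is not given, because its levels form separate clusters. The fit was tried on simulated data with normal noise, which does not cover levels near background or in separate clusters, so nothing is read from it.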

Additional observations from a re-analysis of the deposited data

Results flagged for a closer look

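The difference between the UIP3 classes depended on the PRM8 class in 3 genes, by the interaction of both classes in limma: -8.08 for MST28, -7.76 for MST27 and -2.14 for YGL052W on the log2 scale. These rest on groups of 11, 8, 10 and 14 segregants, and their size on dim values in the group of 11. MST28 and MST27 passed the filter on dim probes only through arrays S96-like at UIP3, so nothing is read from their passing the test. Single arrays also stood apart in the groups of 8 and 10 segregants by Dixon's test, which marks about 1 in 20 groups by chance. Among the 8 segregants that were HS959-like at UIP3 and S96-like at PRM8, SEG11 had the lowest MST28 level at -3.67. Among the 10 that were S96-like at UIP3 and HS959-like at PRM8, SEG1 had the lowest levels of MST28 and MST27, at -2.99 and -4.11, and SEG40 had the lowest level of YGL052W at -8.77.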

How the results depend on the processing

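Class sizes were the same (19 HS959-like) under quantile and median scaling, normexp background and a split at the widest gap. Over 11 alternatives, between 14 and 19 genes passed in all, 10 to 13 on chromosome I and 4 to 6 elsewhere; the fewest came without SEG14 and the most with slide as a block, which kept all 16 calls and added CLN3, YMR158C-B and ALE2. VPS8 was also lost without SEG9 and SEG42 (adjusted p = 0.0729) and with 8 loci as covariates (0.0536), and YAR044W with normexp background (0.0536). TFC3 passed under quantile (0.0353) and median scaling (0.0443) and with 8 loci (0.0300), ALE2 also under quantile scaling (0.0451), normexp (0.0148) and series matrix values (0.0433), and YGL052W with PRM8 (0.000287) or 8 loci (0.00259) as covariates. Within single PRM8 classes, with fewer arrays, KTD1, DFP2, YAR030C, PRM9, MST28 and YAT1 passed in both. All of these but YAT1 passed the filter on dim probes only through arrays S96-like at UIP3, so nothing is read from their passing again. In the S96-like PRM8 class 2 uncalled genes changed sign, DFP4 at -0.45 and CDC15 at -0.0222. In both PRM8 classes DFP1, ADE1, FLO1, YAR047C, YAR044W, VPS8, YOL106W, FBP1 and YMR046W-A kept their sign but did not pass. No paired analysis was possible because no segregant was measured in both classes. With 1 array per line, error between cultures of a line was not measured.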
